A study of Mus musculus with 43 samples.

Results

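The 34 genes described here carry out or control the burning of long-chain fatty acids in mitochondria and the storage of fat in lipid droplets. They were taken by gene symbol from a bulk RNA-seq count table of 57010 genes in 43 libraries of mouse heart, and all 34 were found. The mice were wild type or homozygous for Q150X, a stop codon placed in Vegfa by CRISPR/Cas9 editing. Samples came from mice without injury (homeostasis) or after myocardial infarction (MI). Whole hearts made 3 wild-type and 3 Q150X libraries at homeostasis, 4 and 4 at day 7 after MI, and 3 and 4 at day 30. Cardiomyocytes made 3 libraries per genotype at homeostasis and 3 at day 3 after MI. Endothelial cells made 3 per genotype at homeostasis and 2 at day 3. Every cell of a Q150X mouse carries the allele, so no value belongs to 1 cell type alone. The sources used here do not give strain, sex, age or the means of cell isolation. Nothing says whether the replicates of a group are separate animals, so the p-values measure the spread between these samples, which may be technical.

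Fatty acids enter the heart muscle cell with the help of transport proteins and are bound by the carrier Fabp3. Long-chain acyl-CoA synthetase (Acsl1) activates them, and the carnitine shuttle (Cpt1a, Cpt1b, Slc25a20, Cpt2) carries them into the mitochondrion. There the cycle of beta oxidation shortens them, and electron transfer flavoprotein passes the electrons to the respiratory chain. Surplus fatty acid is esterified (Dgat2), kept in droplets coated by perilipins (Plin2, Plin5) and freed again by lipases (Pnpla2, Lipe). The nuclear receptors Ppara and Esrra and the coactivator Ppargc1a drive many of these genes, and the adult heart draws most of its energy from this route.

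The labelled tissues carried their markers. The summed level of 10 cardiomyocyte markers was 56710 to 89790 CPM (counts scaled to a common library size) in hearts at homeostasis and 65880 to 79270 CPM in cardiomyocytes at homeostasis. Total counts were 25948706 to 37356177 per heart library and 25035490 to 42246348 per cardiomyocyte library. A few libraries stood apart. At homeostasis, library 1 of each genotype contained 525 (wild type) and 468 CPM (Q150X) of Myl7, a gene of the atria, where no other heart of that time had over 0.0336 CPM. The same 2 libraries contained 11.3 and 8.96 CPM of Adipoq, which marks fat cells. At day 7, library 4 of the wild type contained 467 CPM of Tpbpa, a gene of the placenta. Results in hearts were therefore also computed without these 3 libraries. Fat cell markers, Lipe among them, summed to 142.7 (wild type) and 165.1 CPM (Q150X) in the 2 homeostasis libraries. At day 30 they summed to 34.6 to 141.8 CPM in wild type and 19.86 to 180.4 CPM in Q150X, and those libraries were kept. Endothelial library 2 of Q150X at day 3 also stood apart (Fabp3 at 2.37 CPM, against 114 CPM in library 1), and endothelial cells are given as levels with no test.

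The start regions of Plin2 and Ucp3, which rose in infarcted hearts as given below, and of Acadm, which fell in infarcted cardiomyocytes, are shown because nuclear receptors of the PPAR and ERR families bind copies of the hexamer AGGTCA. Each run holds the 250 bases before the RefSeq start in build GRCm38.p6, 5′ to 3′ on the gene's strand, and capitals mark the hexamer, read as TGACCT where it lies on the other strand. Plin2 is at chr4:86670060-86670309 (minus strand), Ucp3 at chr7:100472741-100472990 (plus strand) and Acadm at chr3:153944644-153944893 (minus strand).
Plin2: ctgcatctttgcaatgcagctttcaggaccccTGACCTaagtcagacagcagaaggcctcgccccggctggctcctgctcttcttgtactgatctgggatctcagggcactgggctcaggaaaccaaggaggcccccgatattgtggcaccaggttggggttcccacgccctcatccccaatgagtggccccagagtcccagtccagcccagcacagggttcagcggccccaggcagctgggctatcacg
Ucp3: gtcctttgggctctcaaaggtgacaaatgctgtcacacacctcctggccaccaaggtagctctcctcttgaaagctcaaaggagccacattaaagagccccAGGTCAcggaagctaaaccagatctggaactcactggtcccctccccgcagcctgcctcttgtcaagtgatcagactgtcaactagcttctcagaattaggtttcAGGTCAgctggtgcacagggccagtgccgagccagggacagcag
Acadm: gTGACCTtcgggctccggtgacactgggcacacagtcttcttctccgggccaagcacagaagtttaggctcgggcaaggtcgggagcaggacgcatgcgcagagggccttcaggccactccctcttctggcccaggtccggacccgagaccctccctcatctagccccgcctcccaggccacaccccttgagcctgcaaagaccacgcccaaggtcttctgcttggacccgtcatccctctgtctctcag
The hexamer began 218 bases before the start in Plin2, 149 and 44 bases before it in Ucp3, and 249 bases before it in Acadm. Start regions of 300 bases (250 before the start and 50 after) were matched for 30 of the 34 genes, and the hexamer, on either strand, was in 7 of the 30 (Acadm, Acadvl, Cpt1a, Echs1, Plin2, Plin5 and Ucp3). That count is by gene, and the 30 genes have 35 such regions. Counted by region, 16.3% of all 32851 held it. The 3 genes shown were taken from those 7. Eci2, Ehhadh, Slc27a1, Acot2, Pnpla2 and Lipe, which also rose in hearts of both genotypes at day 7, held no copy. A repeat of the hexamer in the same direction with any 1 base between the copies was in 0 of the 30 and in 0.04% of all regions. A match is a description of the letters, not of binding.

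At homeostasis the oxidation genes were mainly cardiomyocyte genes. The scale for comparing genes with each other is mean CPM per kb of exon. In wild-type cardiomyocytes the highest was Fabp3, the fatty acid carrier (2706 CPM per kb), followed by the dehydrogenase Acadl (578), the thiolase Acaa2 (486) and the dehydrogenase Acadm (344). The lowest were Cpt1b (0.935), Lipe (2.68), Ehhadh (4.21) and Cpt1a (5.73). In wild-type endothelial cells Acadl stood at 48.1 and Acadm at 22.4 CPM per kb, and Ucp3 (0.0403), Ppara (0.166) and Plin5 (0.312) were close to 0. On this scale 3 members were higher in endothelial cells than in cardiomyocytes, namely Lipe (21.4), the droplet coat protein Plin2 (22.3) and Cpt1a (10.1). Pnpla2, the first lipase of the droplet, was 53.3 CPM per kb in endothelial cells and 124.8 in cardiomyocytes. These levels are from 3 libraries per group and were scaled separately in each compartment, so the order across compartments is a description.

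**Figure D1:**
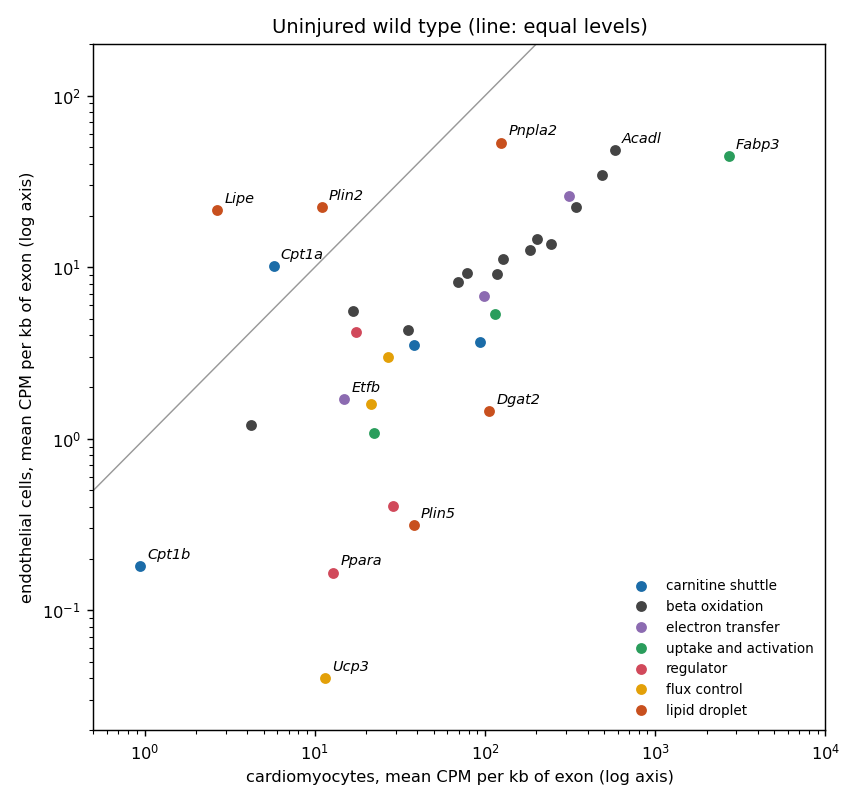
Mean CPM per kb of exon of the 34 genes in endothelial cells (vertical, log axis) against cardiomyocytes (horizontal, log axis) of uninjured wild-type mice, each point 1 gene coloured by role. Lipe, Plin2 and Cpt1a lie above the line of equal levels, and Fabp3 is the farthest right at 2706 CPM per kb.

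The level of Cpt1b, the muscle form of the shuttle's entry enzyme, is uncertain. In the annotation used for lengths (GENCODE vM21, GRCm38), 81.4% of its exon length is also covered on the same strand by the gene model Gm44502, and 58.2% of Etfb, a subunit of electron transfer flavoprotein, by Gm45233 and Mir7051. Gm44502 and Gm45233 are listed at 0 in every library, and Cpt1b reached at most 16 CPM. Dvl2 on the opposite strand covers 42.9% of Acadvl, and the sources used here do not give strandedness. Acot2 has a near copy, Acot1, and reads may be split between them.

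At day 3 after MI, most oxidation genes were lower in cardiomyocytes of both genotypes, while Cpt1a and Plin2 were higher. With edgeR's quasi-likelihood test and Benjamini-Hochberg adjustment over 15169 genes, 2 members rose and 19 fell in wild type, beside 17.4% of all genes called (10.1% up and 7.22% down). In Q150X, 3 rose and 21 fell, beside 27% of all genes called (14.9% up and 12.1% down). The median log2 fold change of the 34 was -0.45 in wild type and -0.42 in Q150X, against -0.01 and -0.00 over all genes. Shared calls were 2 up (Cpt1a and Plin2) and 16 down.

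Hadh, which oxidises the hydroxyacyl intermediate of the cycle, was 664, 609 and 636 CPM in wild-type cardiomyocytes at homeostasis and 342, 352 and 436 CPM at day 3. The groups did not overlap, and Hadh fell (-0.76 ± 0.13, log2 fold change ± SE, adjusted p = 0.000973). In Q150X it was 591, 617 and 609 CPM, then 447, 379 and 309 CPM (-0.68 ± 0.13, adjusted p = 0.0011). Acadm, the medium-chain dehydrogenase, went from 1387, 1281 and 1373 CPM to 826, 851 and 999 CPM in wild type (-0.60 ± 0.11, adjusted p = 0.00231). In Q150X it was 1286, 1340 and 1321 CPM, then 986, 951 and 750 CPM (-0.56 ± 0.11, adjusted p = 0.00189). Every day 3 library lay below every homeostasis library for both genes in both genotypes. Of the 13 beta oxidation genes, 9 fell in each genotype. Acads, the short-chain dehydrogenase, fell by 0.56 and 0.62 on the log2 scale, and the hydratase Echs1 by 0.43 and 0.51. The long-chain dehydrogenase Acadl did not pass (-0.15 ± 0.10 in both), nor did Decr1, which handles unsaturated chains (-0.29 ± 0.11 and -0.18 ± 0.11), or the peroxisomal enzyme Ehhadh (0.21 ± 0.16 and 0.02 ± 0.16). Acaa2 (-0.59 ± 0.12 and -0.55 ± 0.12), Acadvl (-0.46 ± 0.13 and -0.49 ± 0.13), Hadhb (-0.42 ± 0.11 in both) and the isomerase Eci1 (-0.70 ± 0.16 in both) also fell in each genotype. Eci2 fell in wild type (-0.39 ± 0.11), and Hadha in Q150X (-0.40 ± 0.12).

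In the carnitine shuttle Cpt1a rose and Cpt2 fell, while the level of Cpt1b, the entry enzyme's muscle form, is uncertain as given above. Cpt1a, the entry enzyme's form that also serves liver and vessels, was 41.3, 47.5 and 42.5 CPM in wild-type cardiomyocytes at homeostasis and 60.0, 59.7 and 60.8 CPM at day 3. It rose by 0.46 ± 0.09 on the log2 scale (adjusted p = 0.00307). In Q150X it went from 35.9, 36.2 and 37.2 CPM to 66.5, 61.2 and 70.7 CPM (0.86 ± 0.09, adjusted p = 2.11e-05). No library of the injured groups overlapped with homeostasis. Cpt2, which returns the fatty acid to CoA inside the mitochondrion, went from 235, 208 and 229 CPM to 129, 133 and 174 CPM in wild type (-0.63 ± 0.13, adjusted p = 0.00448). In Q150X Cpt2 fell by 0.68 ± 0.13 on the log2 scale (adjusted p = 0.00143). The carrier Slc25a20 fell in wild type (-0.40 ± 0.11) and was -0.29 ± 0.11 in Q150X, where it did not pass. Cpt1b was 2.57 to 3.62 CPM in wild type at homeostasis and 2.02 to 2.71 CPM at day 3, and did not pass in either genotype (-0.45 ± 0.28 and 0.16 ± 0.28).

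Among electron transfer genes Etfa and the dehydrogenase Etfdh fell in both genotypes (Etfa -0.48 ± 0.11 and -0.54 ± 0.11, with adjusted p = 0.00181 in Q150X), and Etfb fell in Q150X (-0.43 ± 0.11). Of the uptake genes, Acsl1 fell in both (-0.48 ± 0.11 and -0.53 ± 0.11) and Fabp3 in Q150X (-0.35 ± 0.13). The transporter Slc27a1 was -0.47 ± 0.19 and -0.11 ± 0.19 and did not pass. The receptor Ppara was 57.0, 41.9 and 48.8 CPM in wild type at homeostasis and 11.3, 33.9 and 32.3 CPM at day 3, and did not pass (-0.93 ± 0.36). In Q150X it was 46.2, 49.3 and 58.8 CPM, then 30.4, 17.3 and 22.0 CPM, and fell (-1.15 ± 0.37). All day 3 libraries were below all homeostasis libraries, with wild-type library 1 the lowest. Esrra fell in both (-0.40 ± 0.13 and -0.59 ± 0.13), and Ppargc1a was -0.55 ± 0.31 and -0.27 ± 0.31 without passing. Malonyl-CoA decarboxylase (Mlycd), which removes the inhibitor of the shuttle, fell in both (-0.56 ± 0.14 and -0.55 ± 0.14). The thioesterase Acot2 fell in wild type (-0.60 ± 0.17). The mitochondrial uncoupling protein gene Ucp3 was 0.69 ± 0.46 and 0.54 ± 0.46 and did not pass.

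The droplet genes split. Plin2, the coat protein found on droplets of most cells, was 34.6, 38.3 and 42.5 CPM in wild-type cardiomyocytes at homeostasis and 64.0, 57.4 and 61.5 CPM at day 3 (0.66 ± 0.13, adjusted p = 0.00256). In Q150X it went from 39.4, 43.4 and 39.3 CPM to 47.7, 66.4 and 68.4 CPM (0.58 ± 0.13, adjusted p = 0.00323). The groups did not overlap in either genotype. Plin5, the coat protein of tissues with high oxidation, fell in both (-0.61 ± 0.14 and -0.58 ± 0.14). Pnpla2, which starts the release of fatty acid from the droplet, also fell in both (-0.79 ± 0.19 and -0.57 ± 0.19). Hormone-sensitive lipase (Lipe) was 12.04, 13.5 and 9.80 CPM in Q150X at homeostasis and 21.8, 21.9 and 15.4 CPM at day 3 (0.74 ± 0.20, adjusted p = 0.0129), and 0.26 ± 0.20 without passing in wild type. Adipoq, the defining gene of fat cells, was at 0 in all cardiomyocyte libraries of day 3. Dgat2, the last step of triglyceride synthesis, fell in Q150X (-0.55 ± 0.15).

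Calls for members that fell depended on scaling and on single libraries. With library size alone as the scale, the median of all genes moved by 0.31 in wild type and 0.27 in Q150X. Calls were then 4 up and 3 down in wild type, beside 4340 of all genes. In Q150X they were 3 up and 4 down, beside 4486 of all genes. Of the 34 members, 25 in wild type and 23 in Q150X were still below 0. Leaving out wild-type homeostasis library 3, day 3 library 1 or day 3 library 2 left 13 calls (2 up and 11 down), beside 1583, 1352 and 1885 of all genes. Leaving out Q150X day 3 library 3 left 15, beside 2430 of all genes. Cpt1a, Plin2, Hadh and Eci1 kept their calls under all 12 alternatives in both genotypes. In wild type Esrra kept its call in 4 of the 12 and Acot2 in 6. In these cardiomyocyte libraries the macrophage and fibroblast markers were also higher at day 3. The fibroblast markers summed to 409.7 to 908 CPM at day 3 and 18.16 to 87.49 CPM at homeostasis. The endothelial markers were 196.9 to 464.5 CPM at homeostasis and 178.3 to 215.9 CPM at day 3 in wild type. In Q150X they were 135.3 to 209.8 CPM, then 211.5 to 250.7 CPM. The 8 macrophage markers summed to 106 to 276 CPM at day 3 and 2.42 to 11.3 CPM at homeostasis, and all 8 rose in each genotype. The cardiomyocyte markers summed to 47560 to 61450 CPM at day 3, against 65880 to 79270 CPM at homeostasis. In bulk samples fewer cells of a type and less RNA per cell cannot be told apart. Set against the summed cardiomyocyte markers of the same library, the median log2 ratio of the 34 was -0.11 in wild type and 0.12 in Q150X.

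**Figure D2:**
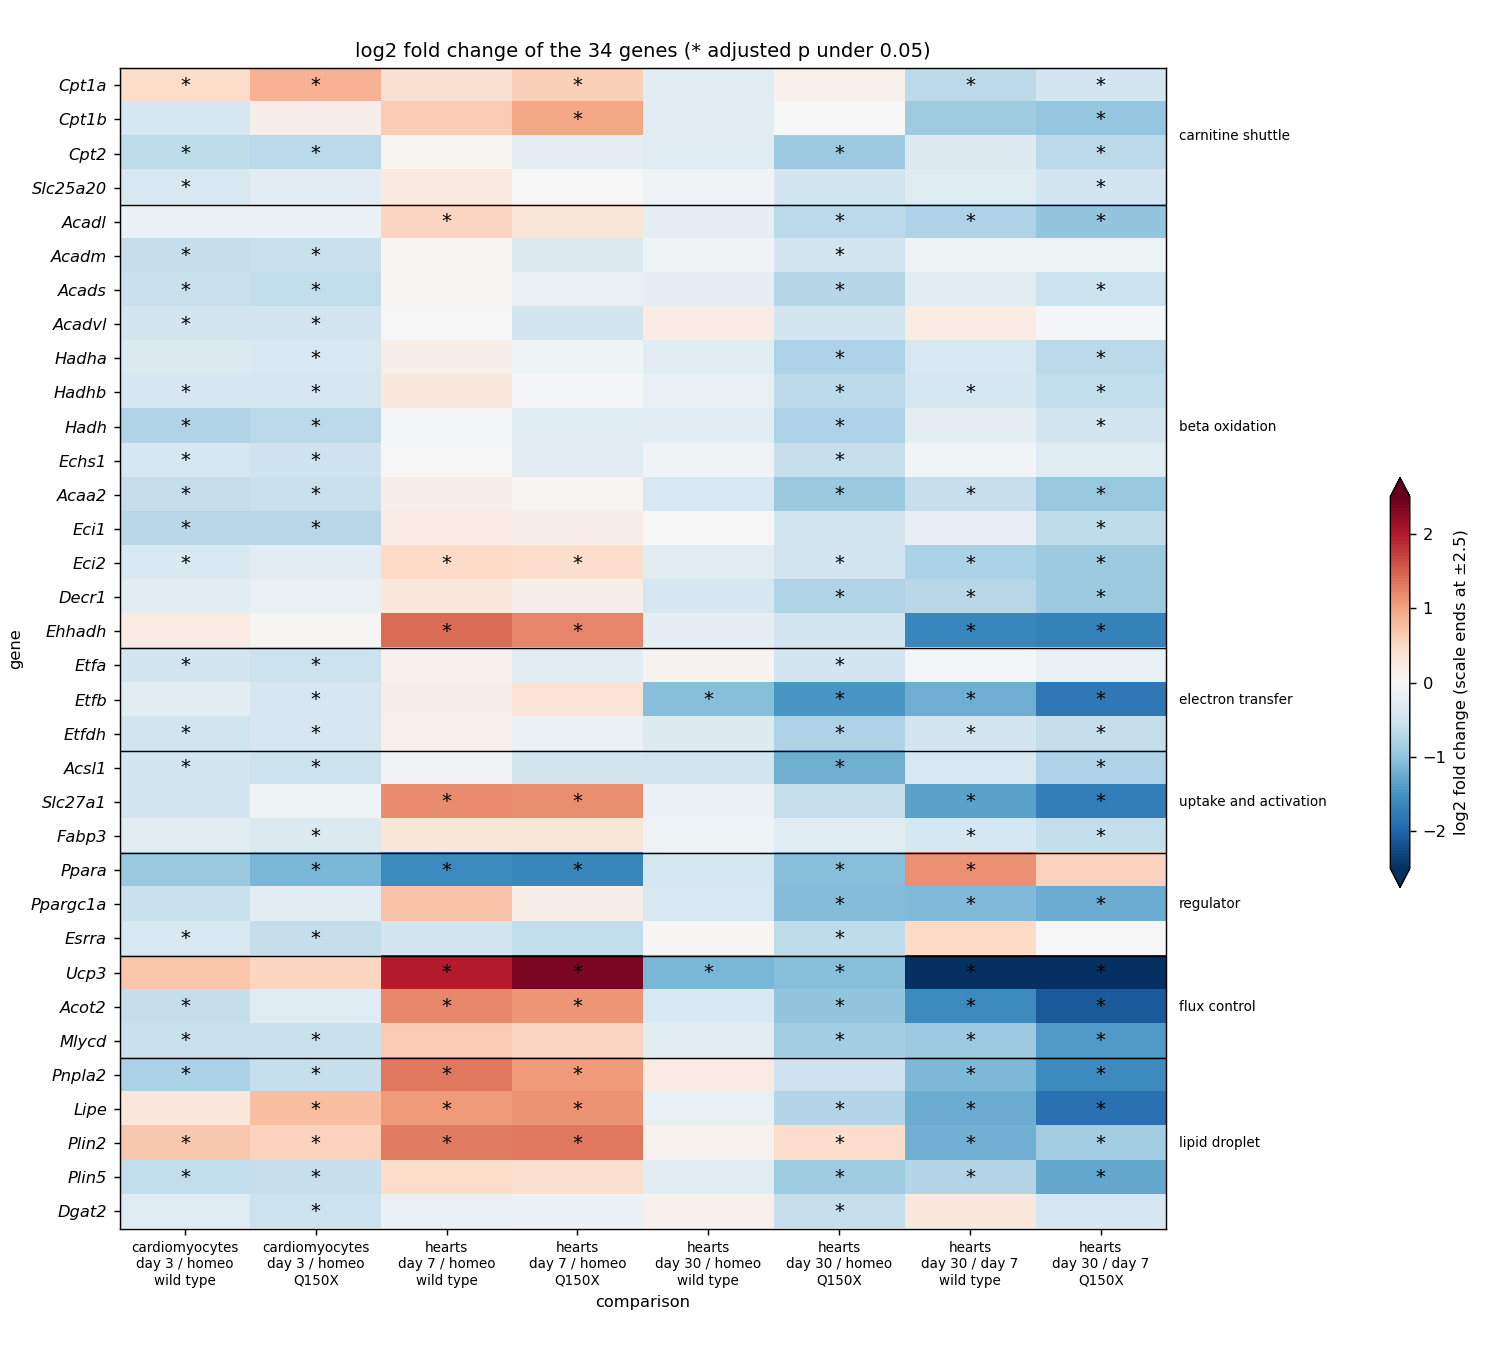
log2 fold change (colour) of the 34 genes (rows, grouped by role) in 8 comparisons (columns), with a star where the adjusted p was under 0.05. Blue fills the cardiomyocyte columns apart from Cpt1a, Plin2 and a few others. Red marks Ucp3, Ehhadh, Slc27a1, Acot2, Pnpla2, Lipe and Plin2 in hearts at day 7. The day 30 columns of both genotypes are mostly blue. Colours saturate at 2.5, below the values of Ucp3 between day 30 and day 7.

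In whole hearts at day 7, a set of droplet, uptake and flux genes was higher in both genotypes and most enzymes of the cycle did not pass the test. Over 17845 genes tested, 9 members rose and 1 fell in wild type, beside 13.7% of all genes called (7.65% up and 6.07% down). In Q150X, 10 rose and 1 fell, beside 26% called (13.8% up and 12.3% down). The members' median was 0.24 and 0.16, against 0.05 and 0.06 over all genes. Both genotypes shared 8 members that rose (Eci2, Ehhadh, Slc27a1, Ucp3, Acot2, Pnpla2, Lipe and Plin2) and 1 that fell (Ppara).

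Plin2 was 64.4, 55.2 and 61.8 CPM in wild-type hearts at homeostasis and 166, 148, 130 and 148 CPM at day 7. It rose by 1.29 ± 0.13 on the log2 scale (adjusted p = 6.09e-06). In Q150X it went from 74.1, 56.5 and 53.0 CPM to 164, 160, 131 and 153 CPM (1.31 ± 0.13, adjusted p = 2.49e-06). The lowest day 7 library was far above the highest homeostasis library in both genotypes. Pnpla2 was 481, 326 and 332 CPM in wild type and then 980, 748, 1099 and 951 CPM (1.32 ± 0.26, adjusted p = 0.00221). In Q150X it was 679, 280 and 302 CPM, then 739, 901, 883 and 1008 CPM (1.07 ± 0.26). The highest homeostasis value was in the Q150X library that stood apart, and the groups still did not overlap. Lipe was 56.4, 29.2 and 33.3 CPM in wild type, then 86.5, 74.4, 86.9 and 83.1 CPM (1.06 ± 0.25). In Q150X it rose by 1.13 ± 0.25 (adjusted p = 0.00293). Adipoq was at most 0.132 CPM in the hearts of day 7. Plin5 (0.47 ± 0.19 and 0.40 ± 0.19) and Dgat2 (-0.17 ± 0.19 and -0.15 ± 0.19) did not pass.

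Ucp3, whose protein sits in the mitochondrial inner membrane and whose level follows fatty acid supply in muscle, was 76.1, 24.8 and 40.3 CPM in wild-type hearts at homeostasis and 201, 154, 182 and 196 CPM at day 7 (1.96 ± 0.34, adjusted p = 0.000909). In Q150X it went from 23.1, 29.9 and 56.4 CPM to 152, 195, 168 and 234 CPM (2.36 ± 0.35, adjusted p = 0.000107). No day 7 library overlapped with homeostasis, although homeostasis libraries differed among themselves. Acot2, which splits acyl-CoA inside mitochondria, was 51.2, 42.5 and 44.6 CPM in wild type and then 118, 114, 109 and 83.0 CPM (1.20 ± 0.22, adjusted p = 0.00133). In Q150X it rose by 1.11 ± 0.22 (adjusted p = 0.00123). Mlycd was 0.63 ± 0.21 and 0.54 ± 0.21 and did not pass. Slc27a1, a fatty acid transport protein, was 232, 153 and 134 CPM in wild type, then 411, 308, 417 and 442 CPM (1.19 ± 0.25, adjusted p = 0.00332). In Q150X it rose by 1.16 ± 0.25 (adjusted p = 0.002). Acsl1 (-0.10 ± 0.17 and -0.45 ± 0.17) and Fabp3 (0.30 ± 0.16 and 0.29 ± 0.16) did not pass.

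Of the 13 beta oxidation genes, 3 rose in wild type and 2 in Q150X. Ehhadh, the bifunctional enzyme of peroxisomes, was 13.2, 11 and 12.3 CPM in wild-type hearts at homeostasis and 29.9, 26.4, 37.1 and 34.1 CPM at day 7 (1.39 ± 0.19, adjusted p = 9.06e-05). In Q150X it rose by 1.22 ± 0.19 (adjusted p = 0.000136). Eci2, an isomerase for unsaturated chains, rose by 0.50 ± 0.14 and 0.44 ± 0.14, and Acadl rose in wild type (0.55 ± 0.16). The core enzymes were close to homeostasis in wild type, with Acadm at 0.03 ± 0.15, Hadha at 0.14 ± 0.16 and Hadh at -0.04 ± 0.15. In Q150X these were -0.37 ± 0.15, -0.10 ± 0.16 and -0.30 ± 0.14 and did not pass. Cpt1a rose in Q150X (0.59 ± 0.15) and was 0.39 ± 0.15 in wild type, where it did not pass. Cpt1b rose in Q150X (0.98 ± 0.34), with the doubt on its level given above. With the replicate number as a block, Cpt1b (adjusted p = 0.0715) and Eci2 (adjusted p = 0.0538) lost their Q150X calls and Mlycd gained one (adjusted p = 0.0477). The labels give no pairing of these libraries, and the same-numbered ones correlated at 0.107 to 0.185.

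Ppara went the other way. It was 23.0, 40.4 and 36.7 CPM in wild-type hearts at homeostasis and 9.14, 15.9, 12.7 and 6.39 CPM at day 7 (-1.60 ± 0.37, adjusted p = 0.00799). In Q150X it went from 32.8, 38.5 and 38.3 CPM to 17.03, 18.8, 4.27 and 7.11 CPM (-1.63 ± 0.37, adjusted p = 0.00361). All day 7 libraries were lower than all homeostasis libraries. Esrra was -0.48 ± 0.23 and -0.61 ± 0.23, and Ppargc1a 0.72 ± 0.36 and 0.17 ± 0.36, and neither passed. The Q150X value of Esrra rested on homeostasis library 1 (266 CPM, against 94.2 and 112 CPM in libraries 2 and 3), and leaving out the 3 libraries that stand apart gave -0.00. Plin2, Ucp3, Ehhadh, Acot2, Slc27a1 and Ppara kept their calls under all 14 alternatives in both genotypes. In wild type Acadl lost its call without homeostasis library 1 or day 7 library 1 or 3, Eci2 without homeostasis library 1 or 3 or day 7 library 1 or 4, and Lipe without homeostasis library 2 or 3. In Q150X Eci2 lost its call without homeostasis library 2 or 3 or day 7 library 4, and Cpt1b without homeostasis library 1 or 2 or day 7 library 2, 3 or 4. Pnpla2 also lost its Q150X call in at least 1 of the 14 alternatives. Calls were also gained. Without the 3 libraries that stand apart, Mlycd (0.73 and 0.97) and Plin5 (0.46 and 0.79) rose in both genotypes, Cpt1a in wild type (0.63), and Fabp3 (0.48) and Slc25a20 (0.39) in Q150X. At day 7 the cardiomyocyte markers summed to 42750 to 56880 CPM, below or at the edge of the 56710 to 89790 CPM of homeostasis, and the 8 fibroblast markers to 1934 to 5743 CPM, against 801 to 1931 CPM.

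**Figure D3:**
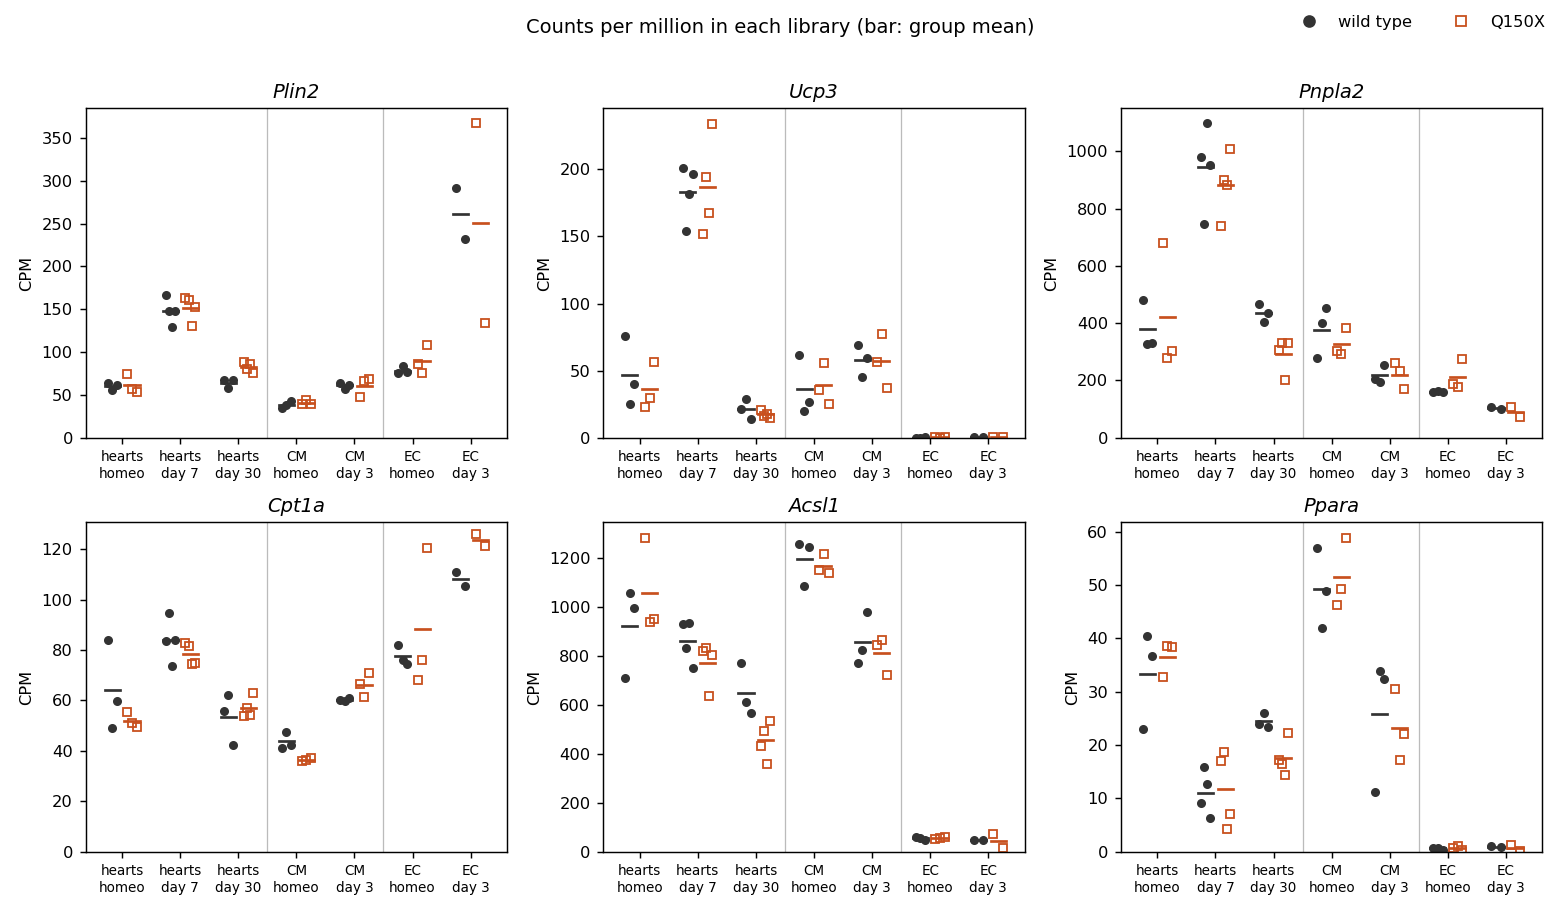
CPM (vertical) of Plin2, Ucp3, Pnpla2, Cpt1a, Acsl1 and Ppara in every library of whole hearts, cardiomyocytes (CM) and endothelial cells (EC) at homeostasis (homeo) and after MI, with bars at group means. Among hearts, Plin2, Ucp3 and Pnpla2 are highest and Ppara lowest at day 7, and Ucp3 and Ppara are near 0 in endothelial cells.

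At day 30 no member that had risen at day 7 passed the test as higher than homeostasis, apart from Plin2 in Q150X. Most members lay below homeostasis in both genotypes, 28 of 34 in wild type and 31 of 34 in Q150X. In wild type 0 members rose and 2 fell, beside 8.93% of all genes called (5.45% up and 3.49% down). In Q150X 1 rose and 24 fell, beside 29.7% called (15.6% up and 14.2% down). The members' median was -0.25 in wild type and -0.66 in Q150X, against -0.02 and -0.03 over all genes. These comparisons share their homeostasis libraries with those of day 7.

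Acsl1, the enzyme that activates fatty acids for oxidation, was 1284, 942 and 950 CPM in Q150X hearts at homeostasis and 432, 494, 360 and 536 CPM at day 30. It fell by 1.22 ± 0.17 on the log2 scale (adjusted p = 0.00011), to 0.43 of its level, with no overlap. In wild type it was 709, 1060 and 996 CPM, then 773, 613 and 567 CPM (-0.50 ± 0.19, adjusted p = 0.0893), and the groups overlapped. Hadh was 668, 537 and 565 CPM in Q150X, then 345, 377, 295 and 357 CPM (-0.78 ± 0.14, adjusted p = 0.000737). Hadha, a subunit of the trifunctional protein, fell by 0.78 ± 0.16 (adjusted p = 0.00135), Acaa2 by 0.93 ± 0.19 (adjusted p = 0.00158) and Cpt2 by 0.91 ± 0.19 (adjusted p = 0.00149). Of the 13 beta oxidation genes 10 fell in Q150X, the others being Acadvl (-0.49 ± 0.18), Eci1 (-0.47 ± 0.18) and Ehhadh (-0.48 ± 0.18). Acadvl was 825 CPM in homeostasis library 1 and 409 and 431 CPM in the other two, and without the 3 libraries that stand apart Acadvl was -0.08 and Eci1 -0.21. All 3 electron transfer genes fell in Q150X. Etfb was 20.5, 28.7 and 34.3 CPM, then 11.9, 11, 7.72 and 9.91 CPM (-1.46 ± 0.28, adjusted p = 0.00107). In wild type it was 15.4, 38.9 and 33.96 CPM, then 15.7, 11.3 and 15.2 CPM (-1.06 ± 0.31, adjusted p = 0.0369), with homeostasis library 1 inside the range of day 30. Its level is uncertain, as given above.

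All 3 regulators fell in Q150X, Ppara by 1.06 ± 0.37, Ppargc1a by 1.08 ± 0.36 and Esrra by 0.63 ± 0.23, and each lost its call under several alternatives. The fall of Esrra rested on homeostasis library 1, and without the 3 libraries that stand apart Esrra was -0.02 (adjusted p = 0.914). In wild type Ppara, Ppargc1a and Esrra were -0.45 ± 0.40, -0.39 ± 0.38 and 0.03 ± 0.24. Ucp3 fell in both genotypes. In wild type it was 76.1, 24.8 and 40.3 CPM at homeostasis and 21.5, 28.6 and 13.8 CPM at day 30 (-1.14 ± 0.35, adjusted p = 0.0461), with overlap, and in Q150X 23.1, 29.9 and 56.4 CPM and then 20.99, 16.5, 17.7 and 14.8 CPM (-1.06 ± 0.32). Acot2 (-0.99 ± 0.21) and Mlycd (-0.86 ± 0.20) fell in Q150X. Of the droplet genes, Plin5 (-0.89 ± 0.19), Lipe (-0.74 ± 0.24) and Dgat2 (-0.57 ± 0.19) fell in Q150X. Plin2 rose there, from 74.1, 56.5 and 53.0 CPM to 88.4, 80.5, 85.8 and 75.9 CPM (0.43 ± 0.13, adjusted p = 0.015). All 4 day 30 libraries were above homeostasis, by a small margin over library 1, and the call was lost without homeostasis library 2 or 3. In wild type Plin2 was 0.08 ± 0.13.

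Of the 25 Q150X calls, 14 held under all 14 alternatives (Cpt2, Acadl, Acads, Hadha, Hadhb, Hadh, Echs1, Acaa2, Decr1, Etfb, Etfdh, Acsl1, Acot2 and Plin5). Library size alone left 16, beside 5156 of all genes. Without the 3 libraries that stand apart, Lipe (-0.35), Dgat2 (-0.25), Etfa (-0.35) and Esrra lost their Q150X calls, and Mlycd (-0.44) and Plin5 (-0.49) kept theirs at smaller values. Neither wild-type call held under all. Without the 3 libraries that stand apart 5 members fell in wild type (Acadl, Decr1, Etfb, Etfdh and Acsl1), while Ucp3 did not pass (-0.61). Of all genes 6221 were then called, against 1594 with those libraries. Leaving out wild-type homeostasis library 1 gave 4 calls, beside 4045 of all genes. Leaving out homeostasis library 2 or day 30 library 2 gave 1, beside 457 and 794 of all genes. Leaving out homeostasis library 3, day 30 library 1 or day 30 library 3 gave 0, beside 437, 1063 and 502. Markers of other cells moved with the Q150X result. In Q150X hearts of day 30 the fibroblast markers summed to 4449 to 7089 CPM, against 801 to 1678 CPM at homeostasis, and 7 of the 8 rose. The cardiomyocyte markers summed to 35820 to 53430 CPM, against 67710 to 89790 CPM, and 7 of the 10 fell. All 8 macrophage markers rose, to a sum of 647 to 1718 CPM from 208 to 370 CPM. Their part in the result was not tested.

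Between day 7 and day 30, 1 member rose and 19 fell in wild type, beside 30% of all genes called (13.9% up and 16.1% down). In Q150X 0 rose and 27 fell, beside 31.4% called (14.9% up and 16.5% down). The median was -0.52 and -0.72, against -0.03 and 0.01 over all genes. The 19 that fell in wild type also fell in Q150X, which had 8 more (Cpt1b, Cpt2, Slc25a20, Acads, Hadha, Hadh, Eci1 and Acsl1). Ucp3 fell the most, by 3.11 ± 0.36 on the log2 scale in wild type (adjusted p = 1.54e-05) and 3.42 ± 0.32 in Q150X (adjusted p = 1.66e-06). Acot2 fell by 1.58 ± 0.22 (adjusted p = 9.21e-05) and 2.10 ± 0.21 (adjusted p = 1.76e-06), and Ehhadh by 1.63 ± 0.19 (adjusted p = 1.37e-05) and 1.70 ± 0.17 (adjusted p = 1.93e-06). Plin2 fell by 1.21 ± 0.13 (adjusted p = 7.99e-06) and 0.88 ± 0.12 (adjusted p = 3.14e-05), and Slc27a1 by 1.34 ± 0.25 (adjusted p = 0.000791) and 1.74 ± 0.23 (adjusted p = 2.58e-05). Lipe fell by 1.24 ± 0.25 in wild type and 1.87 ± 0.23 in Q150X (adjusted p = 1.73e-05), and Eci2 by 0.79 ± 0.14 in wild type (adjusted p = 0.000566) and 0.91 ± 0.13 in Q150X. The other 12 that fell in both were Cpt1a, Acadl, Hadhb, Acaa2, Decr1, Etfb, Etfdh, Fabp3, Ppargc1a, Mlycd, Pnpla2 and Plin5. Ppara rose in wild type (1.15 ± 0.37, adjusted p = 0.0261) and was 0.57 ± 0.35 in Q150X, where it did not pass. Its wild-type call was lost without day 7 library 1 or 4 or any 1 library of day 30. Of the 20 wild-type calls 14 held under all 14 alternatives, and those of Hadhb, Acaa2, Etfdh, Fabp3 and Ppargc1a were the others lost in at least 1.

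Whole-heart CPM mixes cell types, so the 34-gene sum was also set against the 10 cardiomyocyte markers of the same library. In hearts at homeostasis the 34 genes made 20.5 to 22.8 CPM per 100 CPM of markers. At day 7 they made 34.5 to 38.9 in wild type and 30.8 to 39.3 in Q150X, above every homeostasis heart. At day 30 they made 20.8 to 24.7 in wild type and 20.7 to 25.2 in Q150X, which overlaps homeostasis. Cardiomyocytes stood at 19.7 to 22.9 at homeostasis and 19.0 to 23.7 at day 3. On this scale the median log2 ratio of the members to homeostasis was 0.66 in wild type and 0.82 in Q150X at day 7, and -0.09 and 0.03 at day 30, where the CPM medians were -0.25 and -0.66. The median ratio of Q150X to wild type at day 30 was -0.40 in CPM and -0.03 against the markers. The markers themselves may change per cell, and that was not tested. This measure was chosen after the values were seen and carries no test.

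**Figure D4:**
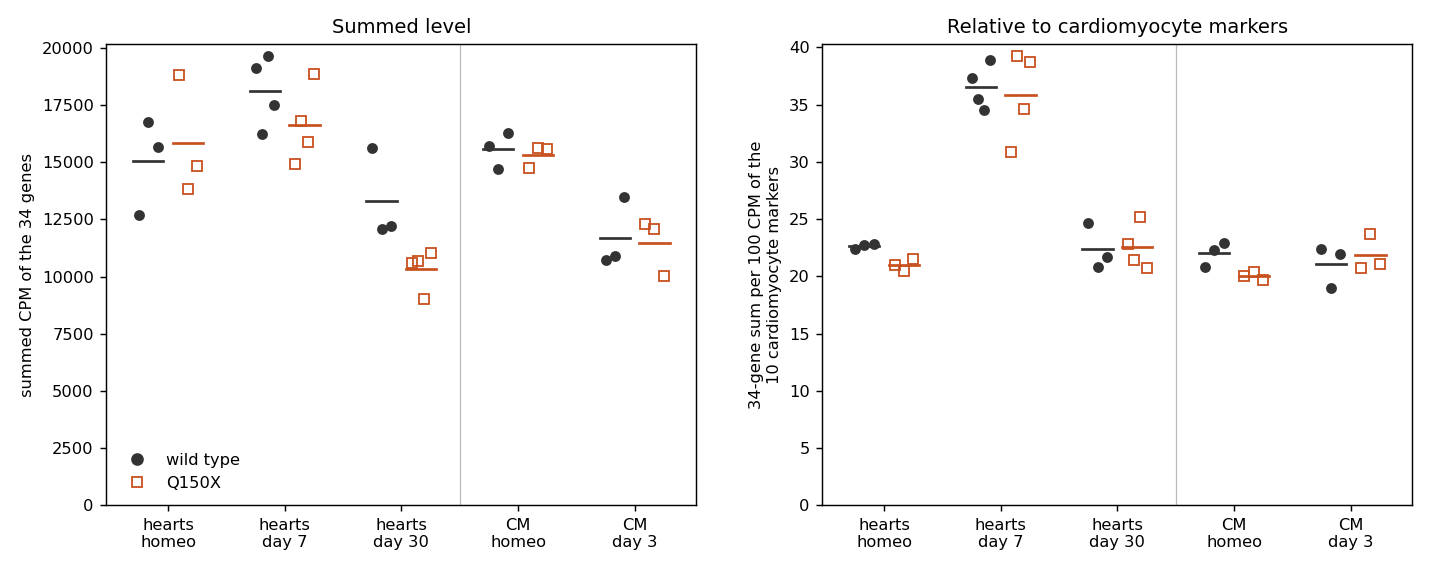
Summed CPM of the 34 genes (left) and that sum per 100 CPM of 10 cardiomyocyte markers (right) in each library of hearts and cardiomyocytes (CM), with bars at group means. Against the markers, all hearts of day 7 lie at 30.8 or more and all hearts of homeostasis and day 30 at 25.2 or less.

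The genotypes did not differ in any member past the threshold. With edgeR, 0 of 34 were called for Q150X against wild type in cardiomyocytes at homeostasis and at day 3 and in hearts at homeostasis and at day 7, beside 0% of all genes called in each, and DESeq2 also called 0. At an unadjusted p under 0.05 these comparisons had 1, 0, 0 and 1 members, beside 13.2%, 1.67%, 2.82% and 3.14% of all genes. The smallest p in cardiomyocytes at homeostasis was that of Cpt1a, at 41.3, 47.5 and 42.5 CPM in wild type and 35.9, 36.2 and 37.2 CPM in Q150X. Its Q150X libraries were all lower, and the difference did not pass (-0.26 ± 0.09, adjusted p = 0.242). Next were Lipe (-0.42 ± 0.20, adjusted p = 0.385) and Esrra (0.25 ± 0.13, adjusted p = 0.404). At day 3 the smallest were those of Cpt1a (0.14 ± 0.09), Acadl (-0.08 ± 0.10) and Acsl1 (-0.08 ± 0.11), all with an adjusted p = 1. In hearts at homeostasis they were Cpt1a (-0.30 ± 0.16), Ppargc1a (0.53 ± 0.38) and Acadvl (0.24 ± 0.20), and at day 7 Acadm (-0.31 ± 0.14), Hadh (-0.27 ± 0.13) and Etfa (-0.21 ± 0.14), again all with an adjusted p = 1. Without the 3 libraries that stand apart, at homeostasis Acadvl was -0.20 and Cpt1a -0.11, and the members' median went from 0.05 (25 above 0 and 9 below) to -0.16 (3 above and 31 below).

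In hearts at day 30, 31 of the 34 members were below 0 for Q150X against wild type, with a median of -0.40 against 0.04 over all genes, and edgeR called 0 of them, beside 0.443% of all genes. An unadjusted p under 0.05 was found for 20 of 34 members and for 13.9% of all genes. For 23 members every Q150X library was below every wild-type library, and for 1 every library was above, beside 9.32% and 9.13% of all genes. Dgat2 was 504, 363 and 404 CPM in wild type and 230, 301, 196 and 263 CPM in Q150X. The groups did not overlap, and the difference did not pass (-0.78 ± 0.19, adjusted p = 0.0813, 0.0108 to 0.41 over the alternatives). Hadh was 575, 420 and 463 CPM, then 345, 377, 295 and 357 CPM (-0.50 ± 0.14, adjusted p = 0.129), and Acsl1 773, 613 and 567 CPM, then 432, 494, 360 and 536 CPM (-0.51 ± 0.17, adjusted p = 0.184). Plin2 went the other way, at 66.9, 58.1 and 66.8 CPM in wild type and 88.4, 80.5, 85.8 and 75.9 CPM in Q150X (0.37 ± 0.13, adjusted p = 0.193). DESeq2 called 2 members (Hadh and Dgat2, both lower in Q150X), beside 454 of all genes. Without the 3 libraries that stand apart, none of which is from day 30, edgeR called 10 (Cpt2, Acads, Acadvl, Hadh, Acsl1, Esrra, Mlycd, Pnpla2, Plin5 and Dgat2, all lower). Of all genes it then called 714, against 79 with those libraries. The cardiomyocyte markers summed to 56300 to 63250 CPM in wild type and 35820 to 53430 CPM in Q150X at day 30, and the fibroblast markers to 2079 to 4102 and 4449 to 7089 CPM.

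**Figure D5:**
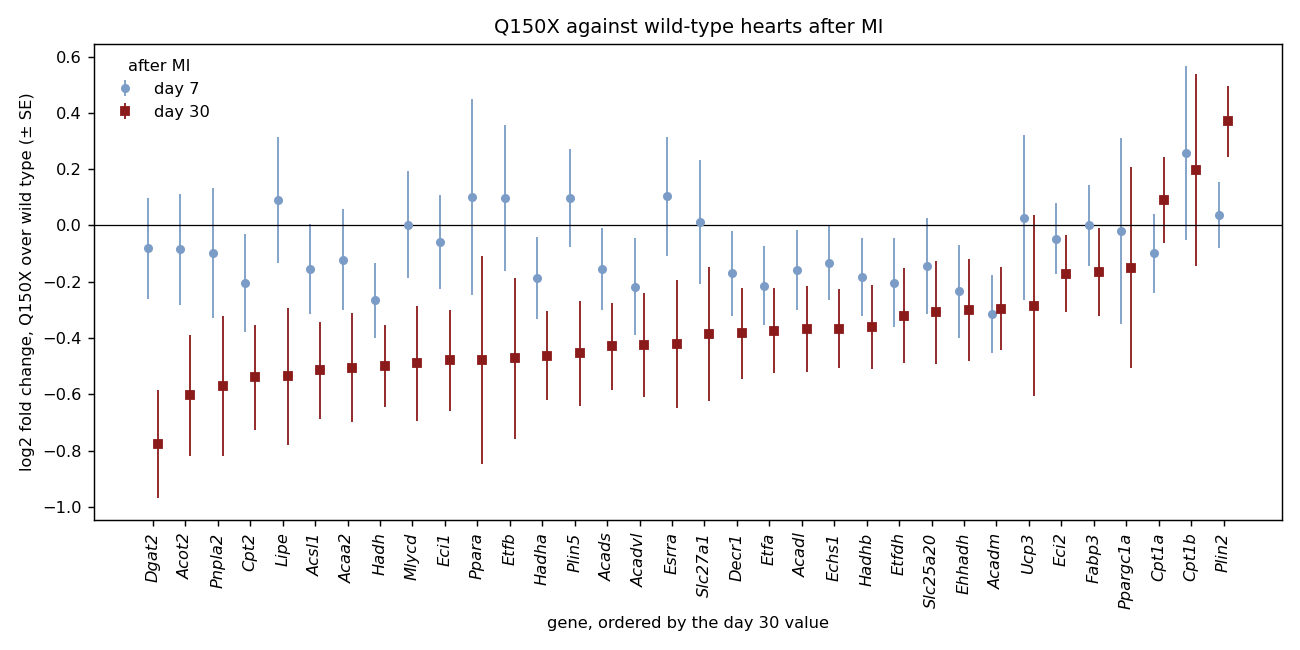
log2 fold change of Q150X over wild type (± SE) for each of the 34 genes (horizontal, ordered by the day 30 value) in hearts at day 7 and day 30 after MI. At day 30, 31 of 34 values are below 0, from Dgat2 at -0.78 on the left to Plin2 at 0.37 on the right, and no gene passed the test at either time.

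The response to MI was not shown to differ between genotypes. The interaction of genotype and MI, which tests that difference itself, called 0 members in cardiomyocytes at day 3 and in hearts at day 7 and day 30 with edgeR, beside 0% of all genes, and 0 with DESeq2. At an unadjusted p under 0.05 there were 1, 0 and 11 members, against 7.82%, 3.3% and 9.66% of all genes. In cardiomyocytes the interaction of Cpt1a was 0.40 ± 0.13 on the log2 scale and did not pass (adjusted p = 0.52), followed by Lipe (0.49 ± 0.28, adjusted p = 0.704) and Cpt1b (0.60 ± 0.40, adjusted p = 0.73). At day 7 the smallest p were those of Acadm (-0.40 ± 0.21), Etfa (-0.39 ± 0.21) and Acadvl (-0.46 ± 0.26), each with an adjusted p = 1. At day 30 they were those of Acsl1 (-0.71 ± 0.25, adjusted p = 0.428), Etfa (-0.55 ± 0.22, adjusted p = 0.455) and Acadvl (-0.67 ± 0.27, adjusted p = 0.455). The count of 24 members that fell in Q150X and 2 in wild type at day 30 is therefore not a tested difference. Without the 3 libraries that stand apart the median interaction at day 7 turned from -0.14 (27 of 34 below 0) to 0.07 (20 above 0), and at day 30 it went from -0.49 to -0.26. Acadvl was then -0.06 at day 7 and -0.23 at day 30, and Acsl1 -0.40 at day 30. On simulated counts the day 30 interaction recovered 16% of 2-fold and 55% of 4-fold changes.

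Endothelial cells had their own pattern of levels. Plin2 was 75.2, 83.2 and 76.4 CPM in wild type at homeostasis and 291 and 232 CPM at day 3. In Q150X it was 85.9, 75.7 and 108 CPM, then 368 CPM and, in the library that stood apart, 134 CPM. Both wild-type libraries of day 3 were above all of homeostasis. Lipe was 126 CPM in all 3 wild-type libraries at homeostasis and 70.6 and 73.8 CPM at day 3. Pnpla2 was 161, 162 and 159 CPM, then 109 and 102 CPM, and Cpt1a 81.9, 76.1 and 74.4 CPM, then 111 and 105 CPM. In wild type the coat protein and the entry enzyme were higher and both lipases lower in each day 3 library than in any of homeostasis, with no test. Dgat2 was 3.90 to 5.25 CPM at homeostasis and 26.1 and 32.6 CPM at day 3 in wild type, and 95.6 and 6.96 CPM in the Q150X libraries of day 3. Fabp3 was 35.2 to 38.0 CPM, then 96.6 and 70.4 CPM. Markers of other cells moved with these levels. In the wild-type endothelial libraries the cardiomyocyte markers were higher where Fabp3 was, and summed to 711 to 832 CPM at homeostasis and 1358 to 1549 CPM at day 3. The macrophage markers went from 113 to 151 CPM to 3050 to 3923 CPM, and the fibroblast markers from 896 to 1071 CPM to 2746 to 3851 CPM. The endothelial markers were 11220 to 12580 CPM and then 7051 to 7327 CPM. Their part in the levels was not tested.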

How the data were processed

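The data are bulk RNA-seq of whole hearts, cardiomyocytes and endothelial cells. The deposited table holds raw counts per gene (whole numbers) made by the authors. Per the submitters' processing notes HISAT2, kallisto and the build GRCm39 were used. The sources used here do not give which tool made the counts, the versions, the annotation or the strandedness. Symbols (52029 of 57010 identifiers) and exon lengths came from GENCODE vM21 on GRCm38, and start regions from RefSeq on GRCm38.p6. Single-nucleus data were not analysed here.

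Hearts and cardiomyocytes were fitted separately, with a mean for every group, by the robust quasi-likelihood test of edgeR 4.0.16 (R 4.3.3) with TMM scaling. Genes first passed filterByExpr (count minimum 10, total minimum 15). A gene was called at a Benjamini-Hochberg adjusted p under 0.05 over the genes of its compartment (15169 in cardiomyocytes, 17845 in hearts). An SE was obtained by dividing the log2 fold change by the square root of its F statistic. CPM used TMM-scaled library sizes. All 34 members passed the filter in hearts and cardiomyocytes. No 2 of 47 replicate pairs were identical.

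The members, the lists and the rule for naming were chosen with earlier results of these data known. The rule names each called member, gives full statistics for up to 6 per direction, and gives the 3 smallest p where fewer than 3 passed or in genotype comparisons and interactions. Of 72 other lipid genes up to 4 called per comparison are named, and 1 of them is not reported here.

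Same-numbered libraries deviated together in hearts at homeostasis of Q150X and wild type (3 pairs, with correlations of 0.488 to 0.689) and in Q150X hearts between homeostasis and day 7 (3 pairs, 0.107 to 0.185). The pairing comes from the data. At homeostasis library 1 of both genotypes stood apart, as given above, and its part in these correlations was not tested. Alternatives were DESeq2 1.42.0 as size factors and as test, library size alone, no filter, a fit of the compared groups alone, a block for the replicate number, leaving out each library, and leaving out the 3 heart libraries that stand apart. The tests were checked on simulated counts. Of the genes changed there, 52% of 2-fold and 80% of 4-fold changes were recovered for MI in wild-type cardiomyocytes, 43% and 73% for hearts at day 7, 32% and 65% at day 30, and 41% and 73% for the genotype at day 30. Figures were drawn with matplotlib 3.10.9 under Python 3.11.15, from tables made with pandas 2.3.3 and numpy 2.4.6. The ratio to cardiomyocyte markers was chosen after its values were seen.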

Additional observations from a re-analysis of the deposited data

Results flagged for a closer look

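In groups of 4 libraries, 7 of 102 gene and group pairs had 1 library far from the others, where chance gives about 1 in 20. Library 2 of wild-type hearts at day 7 was low in 5 beta oxidation and electron transfer genes. It held Acaa2 at 748.5 CPM (966.3 to 979.2 in the other libraries), Eci1 at 199.3 (263.3 to 269), Eci2 at 126.8 (155 to 160.6), Decr1 at 419.8 (508.3 to 519.9) and Etfb at 23.76 (34.87 to 36.87). Library 3 of Q150X hearts at day 7 held Acsl1 at 636.6 CPM (804.3 to 834.2). Library 3 of Q150X hearts at day 30 held Slc27a1 at 93.61 CPM (126.5 to 130.2).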

How the results depend on the processing

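Over all results for single members, 7594 values kept direction and side of the threshold, 254 lost their call, 106 gained one and 2 reversed. With library size alone the calls were 7 in wild-type and 7 in Q150X cardiomyocytes at day 3 (21 and 24 with TMM), 1 in wild-type and 16 in Q150X hearts at day 30 (2 and 25). Of all genes, 4340 and 4486 were then called in cardiomyocytes (2634 and 4097 with TMM) and 1164 and 5156 in hearts (1594 and 5307). For wild-type hearts at day 30 no filter gave 0, the compared groups alone 0 and leaving out the 3 libraries that stand apart 5. These stood beside 1001, 715 and 6221 of all genes. For Q150X against wild type at day 30 DESeq2 gave 2 and leaving out those 3 gave 10, beside 454 and 714 of all genes. Leaving out 1 library gave 13 to 23 calls in wild-type cardiomyocytes, 15 to 24 in Q150X cardiomyocytes and 0 to 4 in wild-type hearts at day 30. Slc25a20 in Q150X hearts at day 7 (-0.01) ranged from -0.1954 to 0.3925 when 1 library was left out, reversing to 0.3925 without homeostasis replicate 1, and was 0.3916 without those 3 libraries. The cause was not tested.

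With replicate number as a block, wild-type hearts at day 30 had 1 call (2 without it), and no other count of calls moved by over 1.5 times. Library size alone moved the median of all genes by 0.31 and 0.27 (wild-type and Q150X cardiomyocytes at day 3), 0.22 (Q150X hearts at day 7), 0.27 (Q150X hearts at day 30) and 0.16 (genotype at day 30). By genotype, it turned the members' median in hearts at homeostasis from 0.05 to -0.05, and in cardiomyocytes at homeostasis from -0.04 to 0.06. Without the 3 libraries it was -0.16 in hearts at homeostasis, and the day 7 interaction median turned from -0.14 to 0.07. The lowest count of a member in a cardiomyocyte library was 47, for Cpt1b, whose level is uncertain as given above. With 3 or 4 libraries per group, small differences could be missed.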

Other observations

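The 72 other lipid genes, from a list drawn up for these data, were read for the same comparisons. In hearts at day 7, 12 rose and 4 fell in wild type and 16 rose and 16 fell in Q150X, of 71 tested. These are 16.9% up and 5.63% down in wild type, beside 7.65% and 6.07% of all genes, and 22.5% each way in Q150X, beside 13.8% and 12.3%. Angptl4, an inhibitor of lipoprotein lipase, rose by 3.26 ± 0.45 and 3.85 ± 0.47, and the cytosolic thioesterase Acot1 by 2.20 ± 0.32 and 2.72 ± 0.33. Fabp4, the carrier of fat cells and capillaries, rose by 1.53 ± 0.19 in Q150X. The coactivator Ppargc1b fell by 1.78 ± 0.25 in wild type. At day 30 against homeostasis 0 rose and 7 fell in wild type and 1 rose and 27 fell in Q150X, which is 9.86% and 38% down, beside 3.49% and 14.2% of all genes. Acot1 (-1.46 ± 0.34), Fitm2 (-0.72 ± 0.19), Abcd3 (-0.60 ± 0.16) and Mgll (-0.74 ± 0.21) fell in wild type, and Lpin1 (-1.57 ± 0.21), Fitm2 (-1.32 ± 0.18), Crat (-1.17 ± 0.18) and Acacb (-0.95 ± 0.15) in Q150X.

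In cardiomyocytes at day 3, 6 rose and 16 fell in wild type and 7 rose and 20 fell in Q150X, of 67 tested. The shares up, 8.96% and 10.4%, lay below the 10.1% and 14.9% of all genes, and the shares down, 23.9% and 29.9%, stood beside 7.22% and 12.1%. Vldlr, the receptor for triglyceride-rich lipoproteins, was 577, 621 and 606 CPM in wild type at homeostasis and 332, 365 and 421 CPM at day 3 (-0.69 ± 0.11), and fell in Q150X (-0.73 ± 0.11). Klf15 (-0.91 ± 0.18) and Sirt3 (-0.57 ± 0.12) fell and the thioesterase Acot9 rose (1.01 ± 0.19) in wild type. Perm1 (-0.82 ± 0.14) fell, and Fabp5 (3.00 ± 0.41) and Acsl4 (0.94 ± 0.16) rose in Q150X. Macrophage markers were higher in the same libraries, and their part in these values was not tested. No gene of this list was called between genotypes or in an interaction.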
